A study of Mus musculus with 4 samples.

Results

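The 10 genes described here encode proteoglycans of the brain and the proteins that they bind around neural cells: the lecticans Bcan, Ncan and Vcan, the link protein Hapln1, the membrane proteoglycans Cspg4, Cspg5 and Ptprz1, the tenascins Tnc and Tnr, and the hyaluronan receptor Cd44. They were chosen by gene name, with Cspg2 counted as Vcan. The names found 9 genes with 24 probes. Ncan is listed on the array under its older name Cspg3 and was added through its RefSeq transcript with 1 probe, which gave 10 genes and 25 probes among 27660 genes or transcripts. All 10 were well above background on at least 1 array and so were among the 19823 genes tested. Of their 25 probes, 9 were well above background on every array and 4 on none.

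The matrix around neural cells is built on hyaluronan, a long sugar polymer. Lecticans carry chondroitin sulfate chains and hold hyaluronan at one end and tenascins at the other, and link proteins fasten the lectican to the hyaluronan. In the brain this matrix is made by glia, their precursors and neurons, it restrains axon growth, and its dense form around neurons is the perineuronal net.

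RNA was measured on 4 one-colour Agilent arrays, from 0.25 ug of RNA each, 1 array for Mixture and 1 for each of 3 mouse neural progenitor cell (NPC) lines. NPCs are dividing cells that can form neurons and glia. NS21 (strain 129/Ola) came from embryonic stem cell line 21, NS195R (strain 129/Sv) from line 195R and NSEB5-2C (strain 129/Ola) from line EB5. Mixture (strain Swiss Webster) pooled the same mass of RNA from liver, lung, heart, kidney, spleen, thymus and whole embryo of day 11, so that it has no brain sample of its own other than the embryo. One label of the Mixture sample instead names an NPC line carrying EGFP and treated with doxycycline, and the other labels and the design text were followed. No separate cultures of a line were measured, so p-values measure the spread between lines together with technical error. In ratios to Mixture the strain cannot be told apart from the cell type. NS195R was the only line of strain 129/Sv, so differences of NS195R from the other lines cannot be told apart from those of strain. The study selected genes that exceeded Mixture by at least 1.5-fold in NSEB5-2C together with NS195R or NS21.

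Well-measured spots numbered 23983 to 26840 of 43379 per array, and repeated probes differed within an array by a median SD of 0.0604 to 0.0729 on the log2 scale. Precision is limited by having 1 array for each line. Of 10 neural progenitor markers, 8 were well above background in NS21 (Sox2 and Hes5 were not), 10 in NS195R and 8 in NSEB5-2C (Sox3 and Hes5 were not), and 8 in Mixture. The 7 leukocyte markers summed to 160 times the array's 75th percentile signal in Mixture and to 0.191 to 0.277 in the lines. In the plot of marker lists the lines differed in pluripotent cell and glial markers. The 6 pluripotent cell markers summed to 4.53 in NS21, with 3 well above background (Nanog, Zfp42 and Tdgf1 were not). They summed to 0.0971 in NS195R, with 0 well above background, and to 0.126 in NSEB5-2C, with 1. Oligodendrocyte lineage markers summed to 77.4 in NS195R, with 7 of 8 well above background, against 2.06 in NS21 (3 of 8) and 1.38 in NSEB5-2C (1 of 8). Mbp went the other way: it was not well above background in NS195R but was so in NS21, and it was the 1 marker above it in NSEB5-2C. Radial glia markers summed to 174 in NS195R against 3.48 and 3.80. Neuron markers were divided: they summed to 11.1 in NS195R against 4.15 and 1.10, with Map2 at a log2 level of 3.15 against -1.58 and -2.11, but Tubb3 was lowest in NS195R (-2.03 against 1.16 and -0.81) and Stmn2 was not well above background there.

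**Figure D1:**
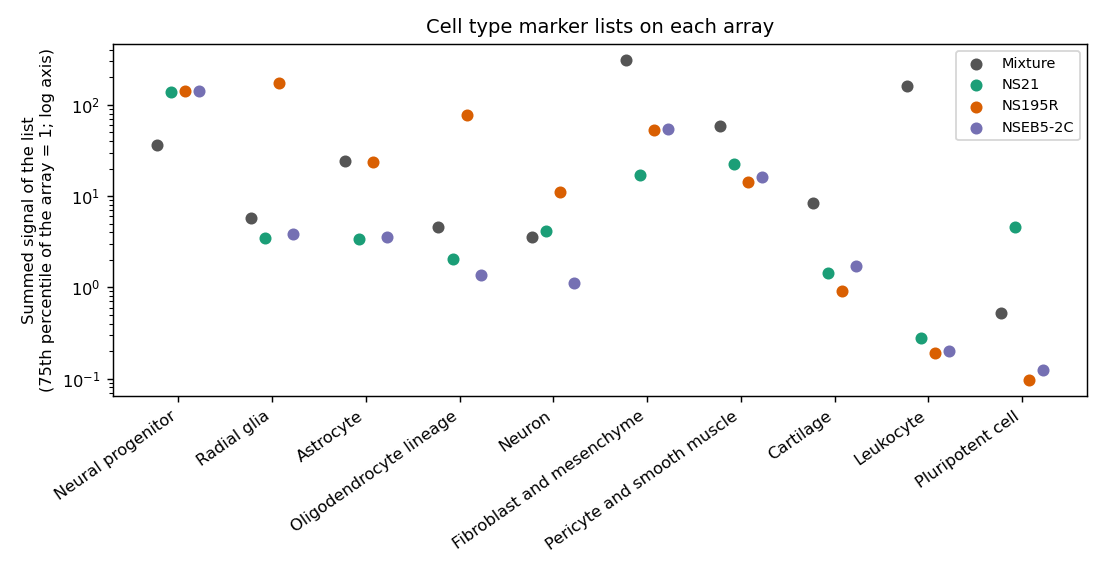
Summed signal of each cell type marker list (log axis, in units of each array's 75th percentile) on the 4 arrays, 1 point per array. Radial glia, astrocyte, oligodendrocyte lineage and neuron lists are highest among the lines in NS195R, and the leukocyte list is at 160 in Mixture and under 0.3 in every line.

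The matrix genes differed widely between the NPC lines, and none passed the test against Mixture. NS195R had the highest signal of 6 of the 10 genes, Bcan, Ncan, Vcan, Cspg4, Cspg5 and Tnr, each exceeding both other lines by 2-fold or more, against 10.3% of all tested genes that were so far above in NS195R. Tnr was well above background in NS195R alone and entered the tested genes only through that line, so its place there adds nothing to the count. With signal well above background required on all 4 arrays, 2 genes remained. NS21 stood at least 2-fold above both other lines for Hapln1 (all genes, 7.3%) and NSEB5-2C for Cd44 (all genes, 5.6%). Values at least 2-fold below both other lines were found for Tnc in NS21 (all genes, 4.06%) and Ncan in NSEB5-2C (all genes, 6.3%), and for none of the 10 in NS195R (all genes, 5.89%). From the lowest to the highest line the median distance was 4.12 on the log2 scale over the 10 genes and 0.85 over all tested genes. In RNA of whole cultures, fewer cells that make a gene and less of its RNA in each cell cannot be told apart. The glial marker sums above moved with the NS195R values, and their part in them was not tested.

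Against Mixture, limma called 0 of the 10 genes higher (all genes, 0.948%) and 0 lower (all genes, 8.91%), and at an unadjusted p under 0.05 the count was also 0 in both directions (all genes, 15.6% higher and 15.4% lower). The median log2 ratio of the lines to Mixture was 0.34 over the 10 genes and 0.44 over all tested genes. By line, NS21 had a median over the 10 genes of -0.17, NS195R of 2.86 and NSEB5-2C of -1.45, where all genes had 0.40, 0.43 and 0.23. The study's rule of size selected Vcan and Tnc, 2 of the 10, against 36.1% of all genes. In the fits of 1 line against the others, limma called 0 genes of all those tested for any line (0% each), so no difference between lines below passed its test. At an unadjusted p under 0.05, 6 of the 10 genes were higher in NS195R (all genes, 7.21%), 1 was higher in NS21 (3.85%), 1 was lower in NS21 (1.86%) and 1 was higher in NSEB5-2C (3.07%). None was lower in NS195R (3.29%) or NSEB5-2C (2.75%) at that p. For Bcan and Tnr in NS195R and for Hapln1 in NS21, neither of the other lines was well above background. The residual spread in those fits is that of dim signals, so their p-values cannot test the spread between lines. For Ncan and Cspg4 in NS195R, 1 of the other lines was dim. Tnr also entered the tested genes only through NS195R.

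**Figure D2:**
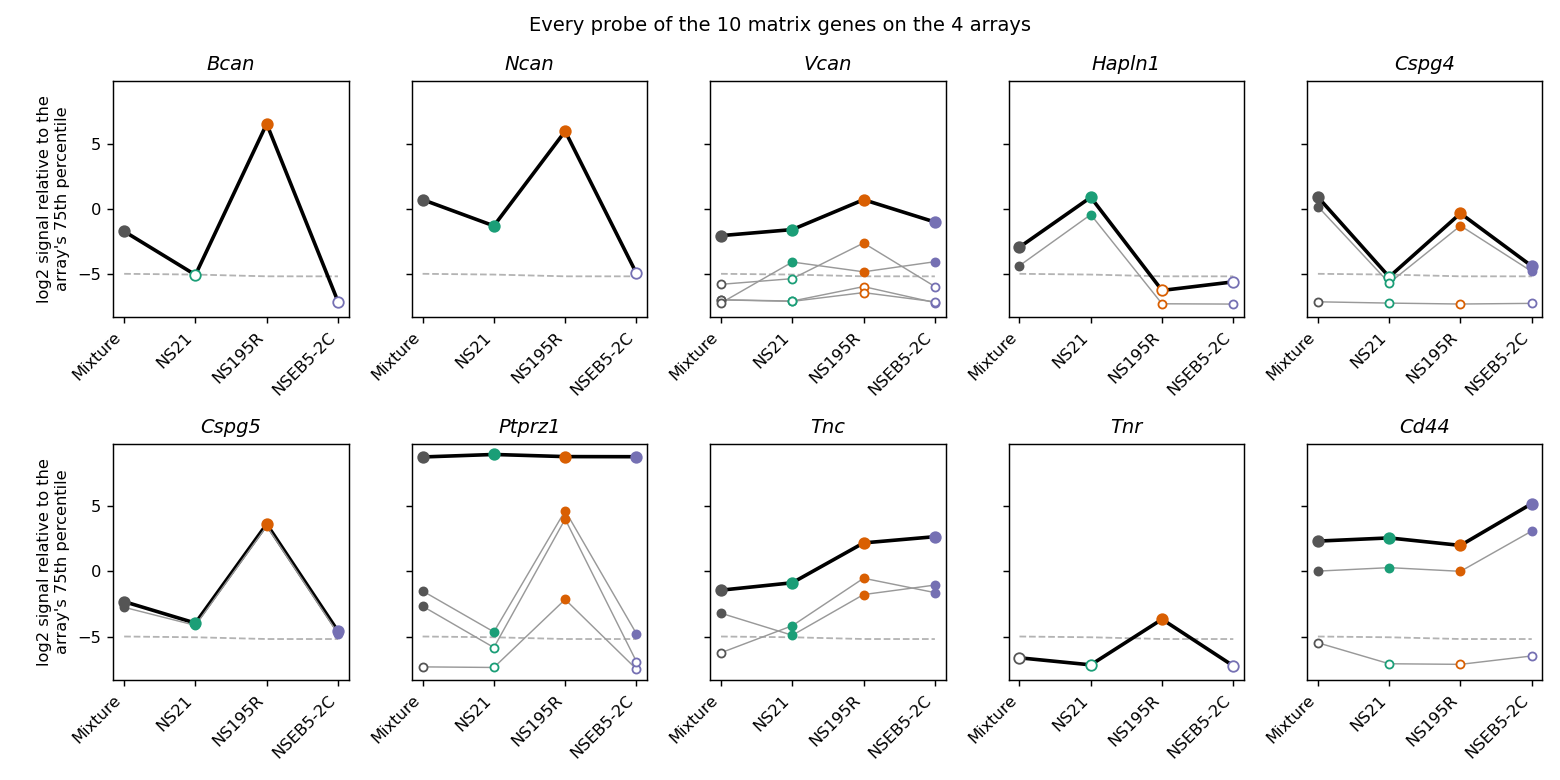
Log2 signal, relative to each array's 75th percentile, of every probe of the 10 genes on the 4 arrays. The thick line is the probe used for the gene, thin lines are its other probes, open points are not well above background, and the dashed line is the lowest signal well above background. Bcan, Ncan, Cspg5 and 3 of 4 Ptprz1 probes peak in NS195R, Hapln1 in NS21 and Cd44 in NSEB5-2C.

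The promoters of Bcan and Ncan, which were high together in NS195R, and of Ptprz1, which was highest there by 3 of its 4 probes but not by the brightest, are shown beside those of 2 genes that were highest in another line (Hapln1 and Cd44). Each is the 250 bases before the RefSeq start in build GRCm38.p6, 5′ to 3′ on the gene's strand, at chr3:88000357-88000606 (minus strand) for Bcan, chr8:70120845-70121094 (minus) for Ncan, chr6:22875252-22875501 (plus) for Ptprz1, chr13:89540386-89540635 (plus) for Hapln1 and chr2:102901666-102901915 (minus) for Cd44. Capitals mark matches on either strand to 5 motifs. These were the E-box of the kind that proneural factors bind, which reads CAGCTG, the Sox core in its form ACAAAG and in its other common form, which reads ACAATG, the half-site of the NFI factors, which reads TTGGCA, and the TATA box, which reads TATAAA.
Bcan: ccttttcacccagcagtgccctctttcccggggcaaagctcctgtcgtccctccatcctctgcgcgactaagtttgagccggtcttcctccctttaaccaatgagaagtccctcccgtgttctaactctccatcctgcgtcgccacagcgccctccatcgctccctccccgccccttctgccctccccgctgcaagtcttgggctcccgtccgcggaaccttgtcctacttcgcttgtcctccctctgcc
Ncan: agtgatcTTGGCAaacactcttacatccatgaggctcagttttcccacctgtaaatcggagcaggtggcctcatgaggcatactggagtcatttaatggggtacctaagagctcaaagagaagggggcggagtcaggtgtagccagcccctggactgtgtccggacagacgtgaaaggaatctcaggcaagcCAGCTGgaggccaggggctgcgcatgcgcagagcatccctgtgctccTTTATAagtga
Ptprz1: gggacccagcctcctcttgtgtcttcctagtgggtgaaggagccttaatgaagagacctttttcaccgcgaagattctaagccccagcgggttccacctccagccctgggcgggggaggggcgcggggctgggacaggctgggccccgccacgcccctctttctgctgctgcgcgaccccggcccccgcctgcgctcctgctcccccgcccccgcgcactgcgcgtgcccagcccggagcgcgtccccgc
Hapln1: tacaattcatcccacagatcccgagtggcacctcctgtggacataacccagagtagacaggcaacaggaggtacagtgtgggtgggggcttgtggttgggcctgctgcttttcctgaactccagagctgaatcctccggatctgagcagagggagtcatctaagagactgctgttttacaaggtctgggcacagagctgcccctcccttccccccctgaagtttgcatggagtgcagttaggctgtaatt
Cd44: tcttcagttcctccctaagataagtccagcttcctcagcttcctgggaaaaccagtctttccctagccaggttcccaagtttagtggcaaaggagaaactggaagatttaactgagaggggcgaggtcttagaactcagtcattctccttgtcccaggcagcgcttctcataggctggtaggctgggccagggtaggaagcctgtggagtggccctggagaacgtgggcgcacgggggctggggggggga
Ncan had an E-box 58 bases, an NFI half-site 243 bases and, on the opposite strand, the TATA box letters 11 bases before its start. These letters stood in none of the other 4 windows. Among 32851 RefSeq promoters of this length, 13% held the E-box, 16.5% the first and 10.7% the other Sox core, 12.3% the NFI half-site and 12.4% the TATA box. The Ptprz1 window had 71.6% GC and 22 CpGs and that of Bcan 62% and 16, above the medians of 52.4% and 6 over all promoters. The windows of Ncan (54.4%, 6 CpGs), Cd44 (56.4%, 5) and Hapln1 (54.4%, 2) lay nearer to or below those medians. RefSeq promoters were matched for 9 of the 10 genes, with 10 starts. Of the windows not printed, Cspg4 held an NFI half-site 213 bases before its start, and Tnr held the first Sox core 220 bases before. The windows of the 2 Tnc starts overlap and held the same TATA box letters, 126 bases before 1 start and 205 before the other. The latter window also held an NFI half-site 19 bases before its start. Vcan held none of the 5.

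Bcan encodes brevican, a lectican made in the brain by astrocytes and oligodendrocyte precursors. Its processed signal, in the scanner software's units, was 77.7 in Mixture and 23169 in NS195R, and it was not well above background in NS21 (7.06) or NSEB5-2C (1.66). The single probe lies at chr3:88101534-88101593 as the files give it, in a build not given in the sources used here, and was read as bright on 1 line only. After division by each array's 75th percentile, NS195R stood 306-fold above Mixture. NS21 was at least 9.98-fold and NSEB5-2C at least 10.96-fold below Mixture. Here and below "at least" means that the dim signal was replaced by the lowest signal well above background on its array wherever that was higher. NS195R was at least 3199-fold above the mean of the other lines, a log2 difference of 12.62 as measured (SE 1.21, limma adjusted p = 0.273). With dim values of every gene raised in this way, the gap to the higher of the other lines ranked 2 of 19823 genes in NS195R, and later ranks were taken likewise. Log2 ratios of the lines to Mixture use the signals as measured, dim ones included. The NPC mean was -1.89 ± 7.36 (SD, n = 3) on the log2 scale against -1.73 in Mixture, which gives a ratio of -0.16 (SE 6.59, limma adjusted p = 0.989). Its sign turned with normexp background correction (1.78), quantile (0.26) or median scaling (0.59), and without NS21 or NSEB5-2C.

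Ncan encodes neurocan, a lectican of the developing brain that binds the adhesion proteins of growing axons. Its signal was 420.5 in Mixture, and NS21 had 95.9, NS195R 15620 and NSEB5-2C 7.47, the last not well above background, from a probe at chr8:68548311-68548370. The 3 lines thus lay on 3 separate levels, with Mixture between NS195R and NS21. NS195R stood 38.1-fold above Mixture and 154-fold above NS21. NS21 was 4.04-fold below Mixture. NSEB5-2C was at least 50.5-fold below it. The difference of NS195R from the mean of the other lines was 9.09 on the log2 scale as measured, with the dim NSEB5-2C included (SE 2.07, limma adjusted p = 0.412), and the ratio of the lines to Mixture was -0.81 (SE 4.98, limma adjusted p = 0.926), which became 0.28 with normexp background correction and 1.62 without NSEB5-2C.

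Vcan encodes versican, the lectican that is also made outside the brain, in vessels, heart and embryonic mesenchyme. Its brightest probe (chr13:86731633-86731692) read 61.8 in Mixture, and NS21 had 78.7, NS195R 409 and NSEB5-2C 114, all well above background. All lines were above Mixture, NS21 by 1.38-fold, NS195R by 6.78-fold and NSEB5-2C by 2.06-fold. The log2 ratio was 1.42 (SE 1.12, adjusted p = 0.461 with limma, all 3 lines higher) and stayed between 0.75 and 2.18 over the alternatives run. NS195R exceeded the higher of the other lines by 3.29-fold, and its log2 difference from their mean was 2.01 (SE 0.51, limma adjusted p = 0.447). The other 4 probes lie 53208 to 76999 bases away on the files' coordinates and are dim. Of these, 2 were not well above background on any array, and 1 was well above it only in NS195R (40.7). The remaining one read 14.0 on NS21, 8.78 on NS195R and 13.8 on NSEB5-2C, with Mixture not well above background, so that it had NS195R lowest of the lines, against the order at the brightest probe. Versican is made in several spliced forms, and which forms the probes read was not tested.

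Hapln1 encodes the cartilage link protein, which also fastens lecticans to hyaluronan in perineuronal nets, and its gene lies close to Vcan on chromosome 13. Its signal was 33.5 in Mixture and 439 in NS21, and it was not well above background in NS195R (3.26) or NSEB5-2C (4.74). NS21 was 14.2-fold above Mixture, and NS195R and NSEB5-2C were each at least 4.72-fold below it. The second probe, 709 bases away, read 12.5 in Mixture and 175 in NS21, and again NS195R (1.60) and NSEB5-2C (1.45) were not well above background. NS21 was at least 67.2-fold above the mean of the other lines, and the log2 difference as measured was 6.82 (SE 0.53, limma adjusted p = 0.709). The gap to the higher of the other lines ranked 16 of 19823 genes in NS21. Hapln1 was thus high in a line in which Bcan was not well above background, and dim in the line with the highest signals of all 3 lecticans. The 7 cartilage markers summed to 1.44 in NS21, between 0.911 in NS195R and 1.73 in NSEB5-2C. Of them, 4 were well above background in NS21 (Acan, Col9a1 and Matn1 were not), 5 in NS195R and 3 in NSEB5-2C. Against Mixture the log2 ratio of the lines was -0.72 (SE 3.55, limma adjusted p = 0.907), turning to 0.52 with normexp, to 0.03 with median scaling and to positive values without NS195R or NSEB5-2C.

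Of the other lecticans and link proteins, 3 of 4 were tested, and limma called 0 higher and 1 lower (all genes, 0.948% and 8.91%). Their median log2 ratio was -0.61 (all genes, 0.44). Acan, the lectican of cartilage and of perineuronal nets, was the lower call (limma adjusted p = 0.0355, all 3 lines lower). It lay 14.6-fold below Mixture in NS195R, and at least 18.4-fold in NS21 and at least 20.2-fold in NSEB5-2C, where it was not well above background. Hapln4, a link protein of the brain, was not well above background in Mixture, and NS21 had a log2 level of -1.78, NS195R of -3.34 and NSEB5-2C of -4.60. Hapln3 had a range of 0.34 between the lines on the log2 scale. Every call against Mixture given here was lost when any 1 of the lines was left out, as was that of every other gene. Such a fit keeps 1 residual degree of freedom, so the loss says nothing particular about the genes named.

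Cspg4 encodes NG2, a membrane proteoglycan that marks oligodendrocyte precursors and pericytes. Its signal was 481 in Mixture, and NS21 had 6.34, NS195R 197 and NSEB5-2C 10.96, of which NS21 was not well above background. Mixture was the highest of the 4 arrays and NS195R the only line near it. NS195R lay 2.38-fold, NSEB5-2C 39.4-fold and NS21 at least 61.8-fold below Mixture. The log2 ratio was -4.23 (SE 2.36, adjusted p = 0.319 with limma, all 3 lines lower), and it stayed between -5.71 and -2.13 over the alternatives run. NS195R was 16.6-fold above the higher of the other lines, and its log2 difference from their mean was 4.46 as measured (SE 0.61, limma adjusted p = 0.282) and 1.78 with normexp background correction. A second probe 702 bases away gave the same order (291, 4.58, 102 and 8.23), and the remaining one, 8121 bases away, was dim on all arrays. The 7 pericyte and smooth muscle markers summed to 58.0 in Mixture, and NS21 had 22.4, NS195R 14.4 and NSEB5-2C 16.2. They were highest in Mixture, as Cspg4 was, and their part in its value was not tested. Of the 7 markers, 7 were well above background in Mixture, 6 in NS21, 4 in NS195R (Rgs5, Abcc9 and Des were not) and 3 in NSEB5-2C.

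Cspg5 encodes neuroglycan C, a membrane proteoglycan with an EGF-like domain that is found in neural tissue. Its signal was 51.9 in Mixture, and NS21 had 15.3, NS195R 3126 and NSEB5-2C 9.60, all well above background. NS195R was 61.8-fold above Mixture, while NS21 was 3.14-fold and NSEB5-2C 4.85-fold below it. NS195R was 194-fold above the higher of the other lines, with a log2 difference from their mean of 7.91 (SE 0.52, limma adjusted p = 0.273). The gap to the higher of the other lines ranked 19 of 19823 genes. The second probe, 11288 bases away, read 38.4, 13.5, 2814 and 8.48 in the same order of arrays. Its fold of NS195R over the higher other line was 197. Both probes therefore gave nearly the same size. The log2 ratio of the lines to Mixture was 0.67 (SE 4.11, limma adjusted p = 0.925) and was -1.96 without NS195R.

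Ptprz1 encodes a receptor tyrosine phosphatase whose extracellular part carries chondroitin sulfate, and a secreted spliced form of it is phosphacan. Its 4 probes split in 2 ways. The brightest, at chr6:22942347-22942406, whose record is the short phosphacan form, read 114569 in Mixture, and NS21 had 120776, NS195R 113901 and NSEB5-2C 104202, and the probe ranked 4 or 5 of 41155 probes on every array. Its log2 levels lay between 8.79 and 8.98, and its ratio of the lines to Mixture was 0.08 (SE 0.35, limma adjusted p = 0.894). The second brightest, 50477 bases away, read 91.5 in Mixture, and NS21 had 9.55, NS195R 6406 and NSEB5-2C 8.45, all well above background. The next read 40.6 in Mixture and 4089 in NS195R, and NS21 (4.16) and NSEB5-2C (1.91) were not well above background. The last, only 322 bases from the brightest, was well above background in NS195R alone (56.8). By the second probe NS195R was 635-fold above the higher of the other lines, ranked 8 of 19823 genes, and differed from their mean by 9.38 on the log2 scale (SE 0.39, limma adjusted p = 0.272). This setting was chosen after seeing the data, and with it NS195R was the highest line for 7 of the 10 genes. The brightest probe put NS195R 1.12-fold below NS21. What the brightest probe reads beside Ptprz1 was not tested.

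**Figure D3:**
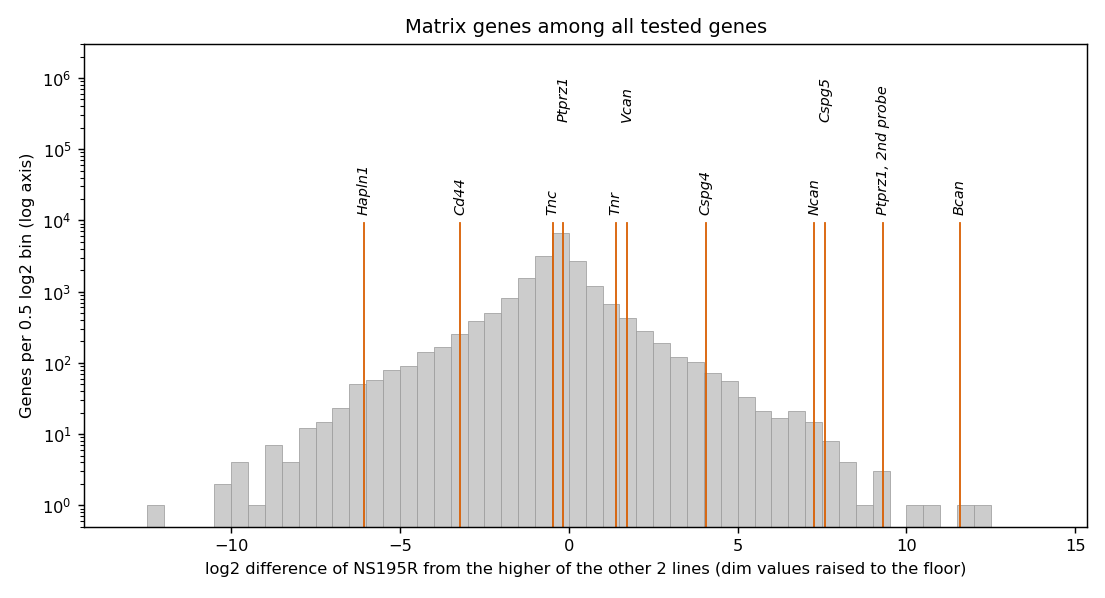
Number of genes (log axis) in bins of 0.5 of the log2 difference between NS195R and the higher of the other lines, over 19823 tested genes, with orange lines at the 10 matrix genes and at the second Ptprz1 probe. Bcan, the second Ptprz1 probe, Cspg5 and Ncan lie at the far right end and Hapln1 and Cd44 on the left.

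Tnc encodes tenascin-C, a glycoprotein of the embryonic and stem cell matrix that binds lecticans and Ptprz1. Its brightest probe (chr4:63394034-63394094) read 95.5 in Mixture, and NS21 had 131, NS195R 1152 and NSEB5-2C 1476. NS195R and NSEB5-2C were high together and NS21 was near Mixture. All lines were above Mixture: NS21 by 1.48-fold, NS195R by 12.4-fold and NSEB5-2C by 17.2-fold, and the log2 ratio was 2.77 (SE 1.75, adjusted p = 0.370 with limma, all 3 lines higher). NS21 was 8.34-fold below the lower of the other lines, and its log2 difference from their mean was -3.30 (SE 0.45, limma adjusted p = 0.709). All 3 probes put NS21 lowest of the lines, with NS195R above NS21 by 8.34-, 12.5- and 8.74-fold. They differed in the order of the other lines. The probe 24506 bases away had NS195R 2.15-fold above NSEB5-2C, where the other probes had it 1.39-fold and 1.66-fold below. They also differed for NS21 against Mixture, since the probe 52876 bases away read 7.98 in NS21 and 28.0 in Mixture.

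Tnr encodes tenascin-R, made by oligodendrocytes and some neurons and found in perineuronal nets. It was well above background in NS195R alone, with a signal of 19.8 against 2.61 in Mixture, 1.65 in NS21 and 1.52 in NSEB5-2C. Its probe lies at chr1:159876689-159881059 on the files' coordinates, a span of 4371 bases. NS195R was at least 2.51-fold above Mixture and 2.61-fold above the higher of the other lines with these raised to the lowest well-measured signal. Its log2 difference from their mean as measured was 3.54 (SE 0.39, limma adjusted p = 0.273). These sizes rest on signals close to background, and with normexp background correction the difference was 0.33, less than the 2-fold gap used above. The ratio of the lines to Mixture was 0.60 (SE 1.86, limma adjusted p = 0.848) and became -0.58 without NS195R.

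Cd44 encodes the main cell surface receptor for hyaluronan, found on astrocyte precursors and on many cells outside the brain. Its signal was 1302 in Mixture, and NS21 had 1422, NS195R 1009 and NSEB5-2C 8573, from a probe at chr2:102663537-102663596. NSEB5-2C stood apart, while NS21 and NS195R lay 1.18-fold above and 1.26-fold below Mixture. NSEB5-2C was 7.34-fold above Mixture and 6.20-fold above the higher of the other lines. Its log2 difference from their mean was 2.92 (SE 0.53, limma adjusted p = 0.771), and the gap to the higher of them ranked 243 of 19823 genes in that line. The second probe is spotted 10 times and gave 264, 292, 254 and 1994 with a spot SD of at most 0.063 on the log2 scale, so the gap was far wider than the error within an array. It put NSEB5-2C 7.01-fold above the higher of the other lines. The last probe, 21513 bases away, was dim on all arrays. The ratio of the lines to Mixture was 0.93 (SE 1.57, limma adjusted p = 0.733) and became -0.04 without NSEB5-2C.

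Most enzymes that build chondroitin sulfate were well above background in every line, 11 or 12 of the 12 chain enzymes and 9 of the 10 sulfotransferases and epimerases. Of the chain enzymes, limma called 0 higher and 0 lower against Mixture (all genes, 0.948% and 8.91%). By the unadjusted p under 0.05, 1 gene was higher (all genes, 15.6%), and the median log2 ratio was 0.56 (all genes, 0.44). Csgalnact1, which starts the chain on the linker, had the widest range, with log2 levels of -0.89 in Mixture, 0.70 in NS195R and 1.51 in NSEB5-2C and not well above background in NS21. Chsy1, a chain polymerase, was highest in NSEB5-2C, at 4.23 against 3.17 in NS21 and 2.26 in NS195R. Chsy3, another polymerase, was highest in NS195R (-1.42), lower in NS21 (-4.75) and not well above background in Mixture or NSEB5-2C. Of the sulfotransferases and epimerases, 0 were called higher and 1 lower (all genes, 0.948% and 8.91%), with a median of 0.48. The lower call was Chst13, at least 5.54-fold lower in the lines (adjusted p = 0.0265 with limma, all 3 lines lower), in none of which it was well above background. Between the lines, 5 of the 10 lay at least 2-fold below both other lines in NS21 (all genes, 4.06%). NS195R was at least 2-fold above both other lines for 1 (all genes, 10.3%) and NSEB5-2C for 2 (all genes, 5.6%). Chst7, which sulfates position 6 of the sugar, stood 25.0-fold above Mixture in NS195R and 71.9-fold above the mean of the other lines. Chst3, of the same activity, was 17.5-fold below Mixture in NS21, where the other lines were 1.15-fold and 1.83-fold below. Chst15 had a log2 level of -0.86 in Mixture, and NS21 had -2.21, NS195R -3.16 and NSEB5-2C -0.18.

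Partners of Ptprz1 and the tenascins were often highest in NS195R. Of 14 ligands and partners, NS195R exceeded both other lines by at least 2-fold for 7, NS21 for 1 and NSEB5-2C for 0 (all genes, 10.3%, 7.3% and 5.6%). Limma called 0 higher and 0 lower against Mixture (all genes, 0.948% and 8.91%). At an unadjusted p under 0.05, 3 were higher (all genes, 15.6%), and the median log2 ratio was 0.25. Ptn encodes pleiotrophin, the ligand that binds the chains of Ptprz1, and its log2 level was 1.04 in Mixture, and NS21 had -0.32, NS195R 6.53 and NSEB5-2C 1.94. NS195R was thus 45.2-fold above Mixture. Chl1, an adhesion protein of the L1 family, had 0.06 in Mixture and 4.77 in NS195R, and -4.57 in NSEB5-2C, and it was not well above background in NS21. Itga9, a tenascin-C receptor subunit, had 1.85 in Mixture and 2.29 in NS195R against -3.07 in NS21 and -3.24 in NSEB5-2C. Of 6 receptors for the proteoglycans themselves, 0 were called higher and 0 lower (all genes, 0.948% and 8.91%). At an unadjusted p under 0.05, 1 was higher (all genes, 15.6%), and the median was -0.44. Ptprd, a receptor phosphatase, was not well above background in NSEB5-2C, at -0.05 in NS21 and 2.28 in NS195R. The Nogo receptor Rtn4r was well above background in NS21 alone among the lines, 16.0-fold above Mixture. Its relative Rtn4rl1 had -1.14 in Mixture, -3.31 in NS21 and -1.26 in NS195R and was not well above background in NSEB5-2C.

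**Figure D4:**
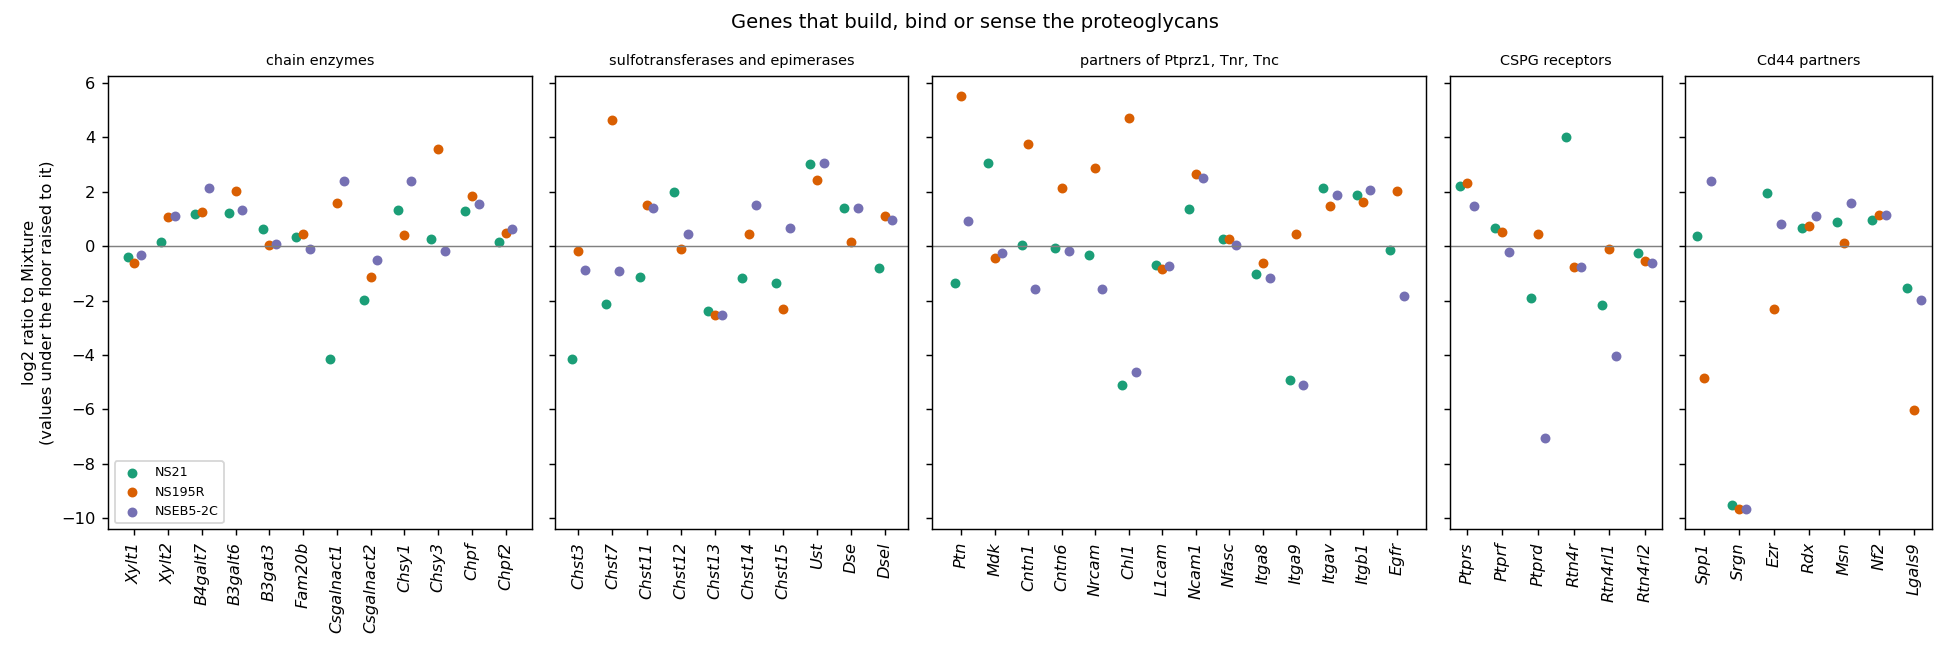
Log2 ratio of each line to Mixture (values under the lowest well-measured signal raised to it) for the genes of 5 lists, 1 point per line. Ptn, Chl1, Chst7 and Chsy3 are highest in NS195R, Spp1 is highest in NSEB5-2C, and Srgn is low in all 3 lines.

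Of 7 Cd44 ligands and cytoskeletal partners, NS195R exceeded both other lines by at least 2-fold for 0 (all genes, 10.3%) and lay as far below both for 3 (all genes, 5.89%). Limma called 0 higher and 1 lower against Mixture (all genes, 0.948% and 8.91%), with a median log2 ratio of 0.15. The lower call was Srgn, the proteoglycan of blood cell granules, at least 779-fold lower in the lines (adjusted p = 0.0150 with limma, all 3 lines lower), beside leukocyte marker sums of 160 in Mixture and at most 0.277 in the lines. Spp1 encodes osteopontin, a Cd44 ligand, and its log2 level was 5.76 in Mixture, and NS21 had 6.12, NS195R 0.91 and NSEB5-2C 8.16, so that it was highest in the line with the highest Cd44. Ezr encodes ezrin, which ties Cd44 to actin, and NS21 had 6.29, NS195R 2.06 and NSEB5-2C 5.16. Lgals9 was not well above background in NS195R and had -0.71 in NS21 and -1.17 in NSEB5-2C.

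Genes that make, cut or bind hyaluronan and the lecticans gave 4 further calls. Of 11 hyaluronan genes tested, 0 were called higher and 3 lower (all genes, 0.948% and 8.91%), with a median log2 ratio of 0.37. The lower calls were the endothelial hyaluronan receptors Lyve1 (at least 45.8-fold, limma adjusted p = 0.0149), Stab1 (at least 97.6-fold, limma adjusted p = 0.0139) and Stab2 (limma adjusted p = 0.0192), which lay 21.2-fold below Mixture in NS21, 19.5-fold in NSEB5-2C and at least 27.2-fold in NS195R. The synthase Has2 was highest in NSEB5-2C, with a log2 level of -2.65 in Mixture, and NS21 had -3.76, NS195R -1.46 and NSEB5-2C 0.13. Cemip, which breaks hyaluronan down, was 15.7-fold above Mixture in NS195R and 8.18-fold in NSEB5-2C and not well above background in NS21. Hyal1, a lysosomal hyaluronidase, was highest in NS21, 3.21-fold above Mixture. Of 9 lectican-cleaving proteases tested, 1 was called higher and 0 lower (all genes, 0.948% and 8.91%), with a median of -1.03. Adamts4, which cuts brevican and aggrecan, rose by 4.19 on the log2 scale (SE 0.50, adjusted p = 0.0317 with limma, all 3 lines higher), from -4.02 in Mixture to between -0.29 and 0.51 in the lines. Mmp3 stood 477-fold above Mixture in NSEB5-2C, with NS21 1.24-fold above and NS195R 2.01-fold below. Mmp2 was also highest in NSEB5-2C (3.08, against 1.97 in NS195R and -1.15 in NS21), and Adamts15 was not well above background there.

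The genes nearest in pattern to each matrix gene over the 4 arrays were taken by the smallest distance of log2 levels centred on their mean over the arrays. It is a description over 4 points per gene, with dim values raised to the lowest well-measured signal. For Bcan they were Mlc1, Olig1 and Chl1, at distances of 1.73 to 2.56. For Ncan they were Mmp15, Wscd1 and Rtn1, at 1.68 to 1.97. Cspg5 was nearest to Grm5, Bcas1 and Astn1, at 0.54 to 0.76. Cspg4 was nearest to Emid1, Clec3b and C1qtnf5, at 0.29 to 0.52. Vcan was nearest to Maged1 at 0.04, then to Zcchc24 and Tcf4. Hapln1 was nearest to Hoxc6, Asic2 and Gjb5, at 0.14 to 0.16, in all of which NS195R and NSEB5-2C were at or near the lowest well-measured signal. Tnc was nearest to Chst2, Twist1 and Lrig1, at 0.48 to 0.78. Cd44 was nearest to Asap1, Etv2 and Unc13c, at 0.13 to 0.32, of which Etv2 and Unc13c were at the lowest well-measured signal in Mixture and NS195R. Tnr was nearest to Cldn34d, En1 and Ptprt, each within 0.03. Tnr and these genes were all at the lowest well-measured signal in Mixture, NS21 and NSEB5-2C, so the small distances rest on NS195R alone. Ptprz1 by its brightest probe was nearest to Mdh2, Fastkd1 and D230025D16Rik, each within 0.07.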

How the data were processed

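Total RNA of 4 samples was labelled with Cy3 and hybridised to 1-colour arrays. The deposited intensity values came from the scanner software run by the authors (Agilent Feature Extraction, version 9.5.3.1 per the file headers), with background subtracted and quality marks set. The deposited series table held the same values at all 45018 features. Columns of other samples numbered 0. All arrays shared 1 slide and 1 scan.

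From the deposited intensity the log2 was taken and each array's 75th percentile over the 43379 non-control spots subtracted, outlier spots were left out, the 10 copies of 245 repeated probes averaged, and 19 of 41174 probes dropped for want of a value. Names came from RefSeq (GRCm38.p6) by transcript for 22944 probes, by a listed transcript for 124, by symbol for 6587 and by synonym for 3076, and 8443 kept the name in the files. The brightest probe over the arrays stood for each gene, and a gene was tested if any array had it well above background.

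The fits used limma 3.58.1 in R 4.3.3 (lmFit, eBayes, two-sided, Benjamini-Hochberg over all tested genes, adjusted p under 0.05), with 2 residual degrees of freedom for lines against Mixture and 1 for a line against the others. The lone array of a side was assumed to vary like the other lines. Counts of 2-fold gaps between lines raise dim values to the lowest well-measured signal. The fits were tested on simulated data.

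The members, gene lists and rules were chosen with earlier results of these data known. The naming rule took every member with all its probes, the called genes of each list, up to 3 genes per list with the widest range between lines, and the 3 genes nearest in pattern to each member. Alternatives covered background correction, scaling, the probe per gene, the dim filter, the variance prior, the folds and leaving out each line.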

Additional observations from a re-analysis of the deposited data

Results flagged for a closer look

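For 4 of the matrix genes the lines moved in opposite directions from Mixture, with at least 1 line 4-fold or more above it and at least 1 line 4-fold or more below. The share of all tested genes that did so was not counted. On the log2 scale the distance from the lowest to the highest line, with dim values raised to the lowest well-measured signal, was 11.71 for Bcan (NS195R above, NS21 and NSEB5-2C below Mixture), 10.91 for Ncan (the same lines), 8.23 for Cspg5 (the same lines) and 6.07 for Hapln1 (NS21 above, NS195R and NSEB5-2C below). Of all tested genes, 0.0101% had a larger distance than Bcan, 0.0202% than Ncan, 0.252% than Cspg5 and 1.61% than Hapln1. These distances were not tested themselves. The limma fits of 1 line against the mean of the others called none of the 4 genes, with an adjusted p of 0.273 for Bcan, 0.412 for Ncan and 0.273 for Cspg5 in NS195R and of 0.709 for Hapln1 in NS21.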

How the results depend on the processing

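The counts of members called against Mixture were 0 in both directions under every alternative run. Over all genes, the 188 higher calls became 974 with normexp background correction, 527 with quantile normalization, 525 with no filter on dim probes and 473 with an intensity trend in eBayes. They became 0 with the filter for signal well above background on all 4 arrays, as did the 1767 lower calls, and both ranged from 0 to 0 without any 1 of the lines. The 6 genes highest in NS195R became 13 probes when every probe was counted on its own, 3 of them of Ptprz1 and 1 of Tnc, and 2 under the filter on all 4 arrays, 4 with a 4-fold gap, 5 with normexp (without Tnr) and 7 for the mean of all probes. For NS21 the 1 gene above both lines became 2 probes and 0 genes in those settings and the 1 below became 3 probes. For NSEB5-2C the 1 above became 2 probes, and the 1 below became 0 under the filter and 2 with dim values not raised. The study's rule passed 2 members, 4 with median scaling, 5 probes counted singly and 0 when asked of all 3 lines. The median log2 ratio of all genes was 0.44, and 0.22 with normexp, 0.47 with quantile normalization and 1.19 with median scaling, and the 9 called list genes kept their sign under each, with 8, 8 and 6 still called. The ratio to Mixture turned sign for Bcan (1.78 with normexp, 0.26 with quantile, 0.59 with median scaling, -4.37 to 2.46 leaving out a line), Ncan (0.28 with normexp, -3.84 to 1.62 leaving out a line) and Hapln1 (0.52 with normexp, 0.034 with median scaling, -2.99 to 0.58 leaving out a line). It also turned leaving out a line for Cd44 (-0.044 to 1.56), Cspg5 (-1.96 to 2.15) and Tnr (-0.58 to 1.21). For Ptprz1 the ratio was -0.086 by its second probe, and the NS195R difference, below 0 by the brightest probe, was 0.089 with quantile normalization, 6.25 for the mean of all probes and 9.38 by the second probe. The cause of these changes was not tested. No paired analysis was possible because the labels give the groups no shared replicate numbers and Mixture has 1 array. Each line is 1 array, so a difference between lines cannot be told apart from one between cultures or hybridisations, and signals near background give only bounds. For NS195R (129/Sv) against the other lines (129/Ola) it cannot be told apart from a difference of strain.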

Other observations

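Of 6 small leucine-rich and testican proteoglycans tested, limma called 0 higher and 0 lower (all genes, 0.948% and 8.91%). At an unadjusted p under 0.05, 3 were lower (all genes, 15.4%). The median log2 ratio to Mixture was -4.85 against 0.44 over all genes. Dcn, which encodes decorin, had a log2 level of 5.83 in Mixture, and NS21 had 0.54, NS195R 2.96 and NSEB5-2C -2.63. Lum, which encodes lumican of connective tissue, lay 1.57-fold below Mixture in NS195R and 18.6-fold below it in NS21, and NSEB5-2C was not well above background. Spock2, a testican of the brain, had 0.62, -2.03, -0.32 and -2.98 in the same order of arrays. The 8 fibroblast and mesenchyme markers, a list that also holds Dcn and Lum, summed to 310 in Mixture, and NS21 had 17.2, NS195R 52.4 and NSEB5-2C 54.3, and their part in these values was not tested. Of the 2 other tenascins tested, limma called Tnxb lower (all genes, 8.91%). It was at least 98.8-fold lower in the lines, with all 3 lines lower and none of them well above background. Tnn was not called, and it was at least 6.65-fold lower and likewise not well above background in any line.

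Of 10 heparan sulfate proteoglycans tested, limma called 1 higher and 0 lower (all genes, 0.948% and 8.91%), and the median log2 ratio was -0.28. Gpc2, a glypican of developing neurons, rose by 3.61 on the log2 scale (SE 0.39, adjusted p = 0.0265 with limma, all 3 lines higher), from -4.06 in Mixture to between -0.69 and -0.24 in the lines. Gpc3 had 2.29 in NS21, -1.08 for NS195R and -4.32 for NSEB5-2C against 1.82 in Mixture. Gpc4 had 4.50, 2.55 and 1.15 in the same order of lines, and Gpc6 was highest in NS195R (-1.78).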
